A study of Mus musculus with 10 samples.

Results

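The genes described here encode the proteins of the cytosolic ribosome. They were the rows of the RNA-seq count table whose symbol is Rps or Rpl with a number and an optional letter or l suffix, or is Rplp0, Rplp1, Rplp2, Rpsa or Fau, and that are protein-coding with at least 10 counts in every library. Of 30677 genes in the table, 89 carried such a symbol, 4 of these (Rpl6l, Rps3a2, Rps3a3 and Rps4l) are pseudogenes in the annotation, and the other 85 all reached the minimum count. Rps3a1, Rpl7l1 and Rpl22l1 were taken in although their symbols end in a further digit. The 85 genes comprised 32 of the small subunit, 46 of the large subunit and 7 paralogs (Rpl3l, Rpl7l1, Rpl10l, Rpl22l1, Rpl36al, Rpl39l and Rps27l). All 85 were also among the 20027 genes that passed the filter for the test.

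RNA-seq was done on TNGA cells, a mouse ES cell line with a GFP reporter in a single allele of Nanog, which were kept in serum and LIF. The treated cells received 100 μM MB-3, a small-molecule inhibitor of the histone acetyltransferase Kat2a, for 48 hours, and the control cells received the vehicle DMSO, which stood at 0.1% of the volume in both groups. There were 3 libraries per group, lettered A, B and C, and nothing in the labels says whether a letter marks a separate culture, so the p-values measure the spread between these libraries. H3K9ac, the histone mark that Kat2a deposits at active promoters, was mapped in both treatments and deposited as 1 peak list each.

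A ribosome is built from ribosomal RNA and a fixed set of proteins, most of them present once per particle, and the proteins are made from some of the most abundant mRNAs of a growing cell. Many of these mRNAs begin with a terminal oligopyrimidine (TOP) tract, a C followed by a run of C and U, through which the mTOR pathway and Larp1 control their translation. Because the mRNAs are short and abundant, they have been copied back into the mammalian genome many times, and the mouse genome holds several intronless pseudogenes for most of the genes.

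The copies were therefore counted beside the genes. A spliced mRNA crosses exon junctions that its own gene interrupts with an intron, whereas an intronless copy holds the same bases unbroken. The following 50 bases of spliced mRNA are shown because each was also found, base for base, in a processed pseudogene, and these are the 4 pseudogenes with the most counts. They were read 5′ to 3′ from the mouse reference genome (GRCm38), with the last bases of one exon in lower case and the first bases of the next in capitals:
Rplp0: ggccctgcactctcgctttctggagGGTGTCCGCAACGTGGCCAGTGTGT
Rpsa: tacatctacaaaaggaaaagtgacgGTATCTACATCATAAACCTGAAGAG
Rpl5: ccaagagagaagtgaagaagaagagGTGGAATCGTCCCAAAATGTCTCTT
Rpl4: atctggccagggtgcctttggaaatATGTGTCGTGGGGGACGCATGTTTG

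The Rplp0 gene, which encodes the base of the ribosomal stalk, lies on chromosome 5 from 115559467 to 115563727 and has 7 exons, and the 50 bases stand unbroken in Gm8730 at chr8:102865123-102865172 on the minus strand. Gm8730 held 929988 counts over the 6 libraries and Rplp0 itself 204998. Rpsa, which encodes a small subunit protein also known as the laminin receptor, lies on chromosome 9 from 120127689 to 120132369, and its bases stand in Rpsa-ps10 at chr3:150073385-150073434. Rpsa-ps10 held 546434 counts against 12342 for Rpsa. For Rpl5, which joins the large subunit together with ribosomal RNA and Rpl11, the copy was Gm15500 at chr7:114705345-114705394, with 441496 counts against 8630 for the gene. Rpl4, whose protein lines the exit tunnel, went the other way, with 893486 counts against 422013 for Gm5835, where its bases stand at chr1:143094300-143094349.

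The same held across the group. Over all 50-base windows of a gene's spliced transcript, a median of 62.0% per gene occurred a further time in the genome. Of the windows that cross a junction, a median of 82.8% per gene had an unbroken copy. Counted genes that hold at least 50 such windows of a gene were taken as its copies where the annotation classes them as pseudogenes or their symbol names them so. There were 490 of them in the count table, 4 of which (Rpl10-ps3, Rpl36a-ps1, Rpl9-ps6 and Rps12-ps3) are protein-coding in the annotation. The median was 4 per gene, and Rpl21 had 45. By this rule 9 of the 85 genes had no copy. Rpl32 was 1 of them, although a pseudogene named after it held 70792 counts. In 58 of the 85 genes the copies together held more counts than the gene itself. The gene's own part of the summed counts had a median of 26.5% and was under 10% in 27 genes and over 90% in 13. It was 0.206% for Rpl24 and 0.284% for Rpl29, both of the large subunit, and 100% for Rps3, which lines the mRNA entry of the small subunit. The aligner named by the authors places a read without splitting it at an intron, but how reads with several matches were handled is not given in the sources used here. Its part in these counts was not tested.

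**Figure D1:**
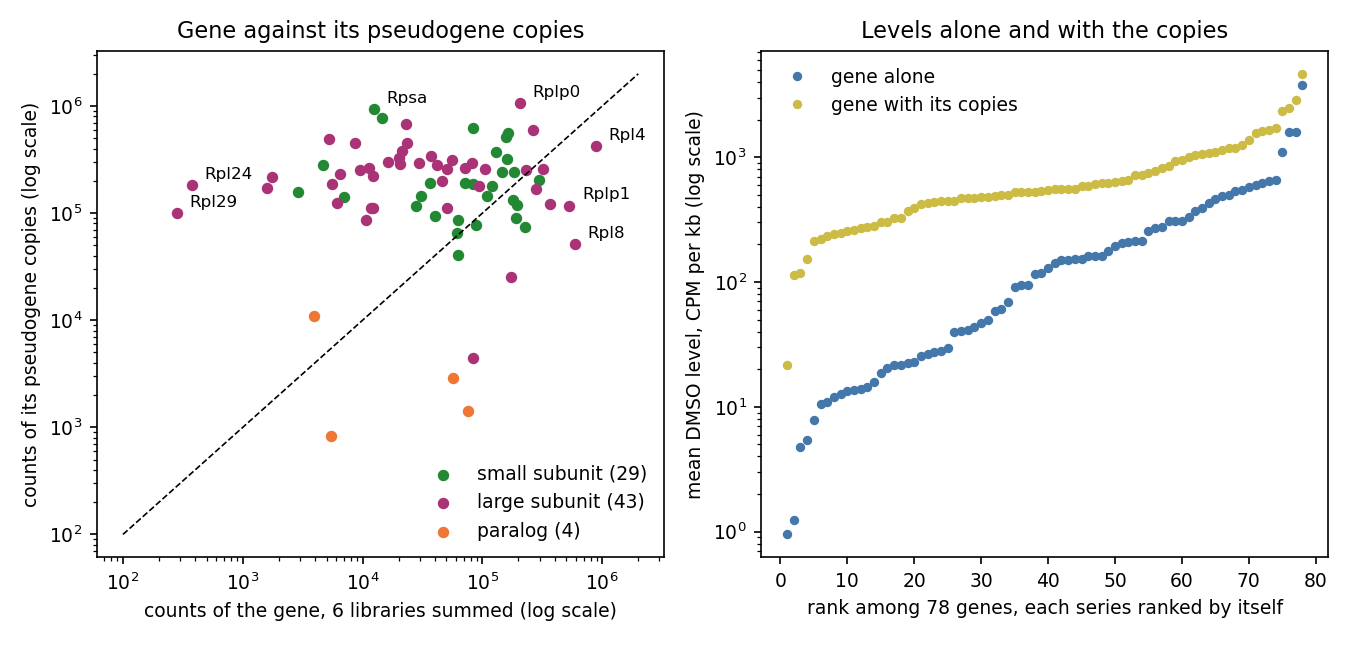
Left, the counts of each of the 76 genes with at least 1 pseudogene copy, summed over 6 libraries, against the counts of its copies, both on log scales, with a dashed line of equal counts. Right, the mean DMSO level in CPM per kb of exon of 78 genes (paralogs left out), alone and with the copies added, each series ranked by itself on a log scale. Most points lie above the line, and the levels with copies span a narrower range.

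The level of each gene was taken as counts per 1000000 counts of the library (CPM, scaled by TMM) per kb of annotated exon. In DMSO, Rplp1, an acidic protein of the stalk, was the highest at 3809 ± 199 CPM per kb (SD, n = 3), and it stood at 3735 ± 225 in MB-3. Rpl8, which lies near the catalytic centre, followed with 1592 ± 117 in DMSO and 1491 ± 77.5 in MB-3. Rpl4 stood at 1588 ± 47.0 and 1564 ± 98.4, which did not differ from Rpl8 beyond the spread of the libraries. Next were Rps15, in the head of the small subunit, with 1093 ± 89.3 and 1042 ± 29.6, and the X-linked Rps4x with 656 ± 44.99 and 621 ± 42.9. These ranks rest on the counts of the genes alone. With the copies added, Rplp1 stood at 4660 CPM per kb in DMSO, followed by Rplp0 (2866) and Rps3a1 (2482). Rpl4 (2353) and Rpl8 (1728) came after them.

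The 5 lowest genes lay orders of magnitude below these. The muscle paralog Rpl3l had 0.446 ± 0.176 CPM per kb in DMSO and 0.276 ± 0.0866 in MB-3. Rpl29 had 0.9502 ± 0.192 and 0.833 ± 0.194, and Rpl24 had 1.24 ± 0.00624 and 1.35 ± 0.202. Rpl17 stood at 4.78 ± 0.104 and 4.53 ± 0.334, and Rpl21 at 5.45 ± 0.397 and 5.38 ± 0.145. Of these genes Rpl3l had no pseudogene copy, and the other 4 are core proteins of the large subunit with 3 to 45 copies each. When the counts of the copies were added, Rpl24 stood at 640 CPM per kb and Rpl29 at 324.

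Adding the copies brought the levels closer together. Among the 78 genes other than paralogs, the upper quartile of the DMSO level was 13.1 times the lower quartile for the genes alone, with quartiles of 23.4 and 306 and a median of 124 CPM per kb. With the copies it was 2.26 times, with quartiles of 402 and 910 and a median of 542. The gene length was the same in both sums, and a copy that matches several genes was added to each. The lowest with copies was Rplp2, the partner of Rplp1 in the stalk, at 21.6 CPM per kb with no copy that met the rule.

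The paralogs differed in their level relative to their partners. Rpl3l was at 0.146% of the DMSO level per kb of Rpl3, Rpl22l1 at 3.20% of Rpl22, Rpl39l, known from testis, at 3.68% of Rpl39, and Rpl7l1 at 11.7% of Rpl7. Rps27l, known as a target of p53, had 123 ± 10.1 CPM per kb against 119 ± 12.6 for Rps27, which did not differ beyond the spread. Rpl10l, an intronless testis paralog, had 19.9 ± 0.206 against 15.7 ± 0.773 for Rpl10, the protein whose loading completes the large subunit. Rpl36al had 197 ± 11.1 against 13.6 ± 1.27 for Rpl36a. All of these ratios rest on the counts of the genes alone. With the copies, Rpl10 stood at 470 CPM per kb and Rpl36a at 280. Rpl22l1 then stood at 26.7 against 246 for Rpl22, and Rpl3 stood at 1001 with Rpl3l still at 0.446.

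MB-3 was compared with DMSO to ask whether inhibition of Kat2a changes the mRNAs of the ribosomal proteins. Their summed share of all counts was 3.17%, 3.46% and 3.25% in DMSO A, B and C, and 3.08%, 3.23% and 3.09% in MB-3 A, B and C. MB-3 B lay above DMSO A, so the groups overlapped. The mean of the 3 libraries was 3.29% ± 0.146 (SD) with DMSO and 3.13% ± 0.0870 with MB-3, and the difference of -0.160 percentage points was about as large as the spread in DMSO. Within each letter, however, the share was lower in MB-3 than in DMSO. With 1 library left out, the difference ranged from -0.220 (without DMSO A) to -0.0790 (without DMSO B). The small subunit genes took 1.37% ± 0.0728 and 1.28% ± 0.0340, and those of the large subunit 1.86% ± 0.0709 and 1.79% ± 0.0519. The pseudogene copies took more than the genes, 6.59% to 7.18% in DMSO and 6.30% to 6.66% in MB-3, with the libraries of a group in the same order of A, C and B from low to high.

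**Figure D2:**
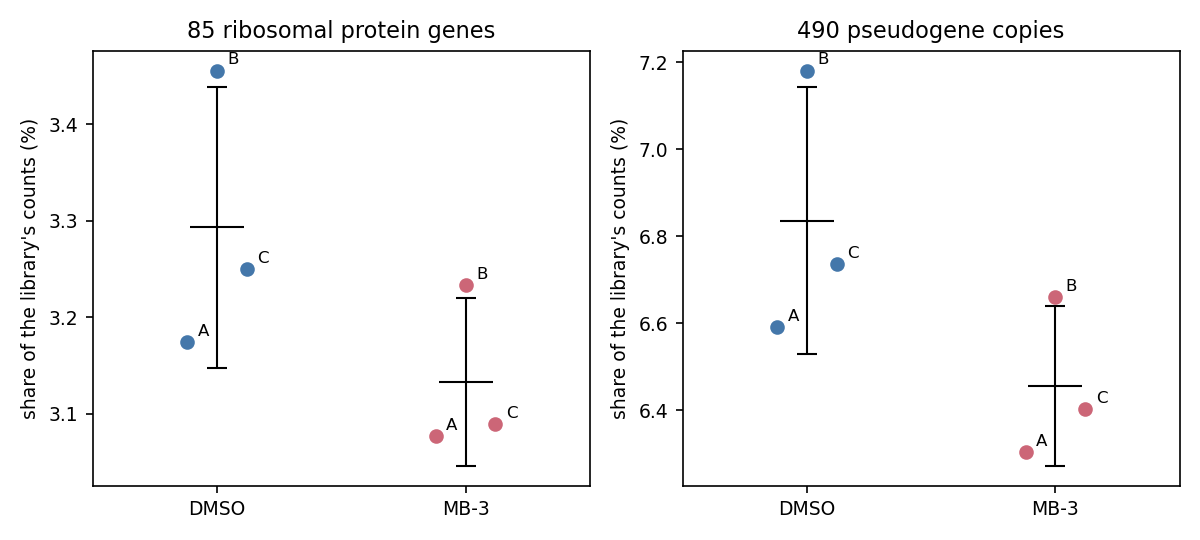
Share of each library's counts, in %, in the 85 ribosomal protein genes (left) and in their 490 pseudogene copies (right). Points are libraries with their letter, and bars are the mean ± SD of 3 libraries; the axes do not start at 0. Library B was the highest of its group in all 4 columns of points.

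Gene by gene, 0 of the 85 genes passed the edgeR test at an adjusted p under 0.05, beside 41 of all 20027 genes (0.205%). DESeq2 and limma-voom also called 0 of the 85. At an unadjusted p under 0.05 there were 7 of 85 (8.24%), beside 10.9% of all genes. The fitted log2 fold change was nevertheless below 0 in 73 of the 85 genes, beside 50.3% of all genes. Its median was -0.07 (quartiles -0.11 and -0.03), beside -0.00109 over all genes (quartiles -0.10 and 0.10). By class, 30 of 32 small subunit genes, 39 of 46 large subunit genes and 4 of 7 paralogs were below 0. No gene reached a 2-fold change, and 83 of 85 lay within 0.2 on the log2 scale. The genes share their libraries, so the count of genes below 0 is not one of independent observations. The count below 0 was 52 of 85, with a median of -0.02, without DMSO B. Without MB-3 B it was 76 of 85, with a median of -0.11.

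**Figure D3:**
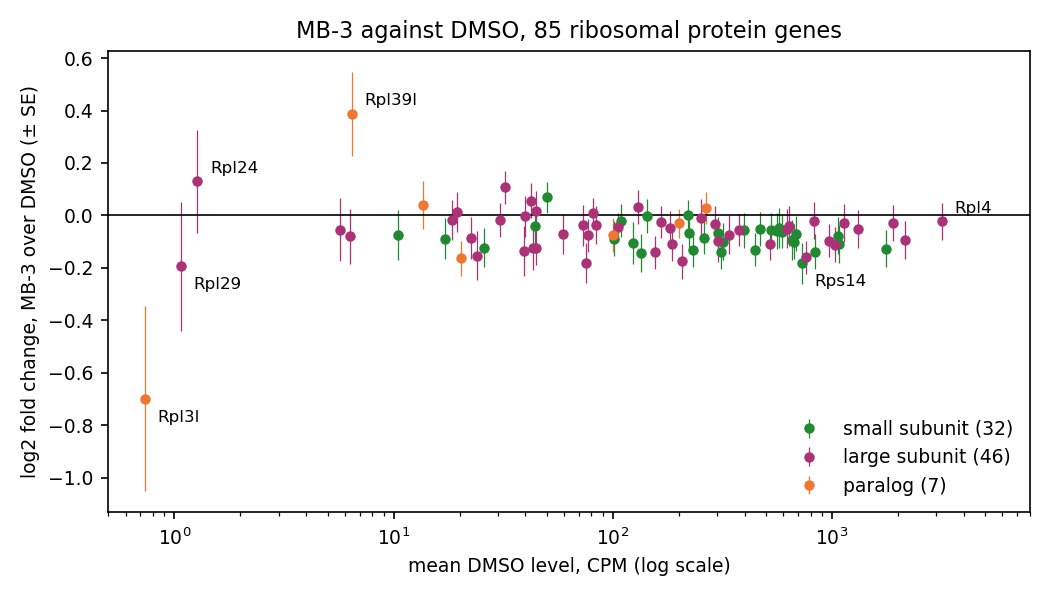
Fitted log2 fold change (MB-3 over DMSO) with its standard error for each of the 85 genes, against its mean DMSO level in CPM on a log scale; colours mark the class. Most points lie a little below 0, and the points far from 0 (Rpl3l at -0.70, Rpl39l at 0.39) are at low levels with wide errors.

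Within the letters, 64 of 85 genes were lower in MB-3 A than in DMSO A, 76 in MB-3 B than in DMSO B, and 54 in MB-3 C than in DMSO C. The median log2 differences were -0.06, -0.11 and -0.05. In 40 of the 85 genes (47.1%) MB-3 was lower within all 3 letters, beside 20.3% of all genes. Since the letters paired the libraries over all genes, the replicate letter was also fitted as a block, although over the 85 genes the deviations of same-lettered libraries correlated at -0.35 for A, 0.43 for B and 0.03 for C. That fit called 7 of the 85 genes (8.24%), 6 of them lower and Rpl39l higher, beside 1425 of all genes (7.12%), so the share called among ribosomal protein genes was close to that of all genes.

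The 7 genes called with the block changed little. Rps14, on the platform of the small subunit, had 676, 812 and 710 CPM in DMSO A, B and C and 636, 701 and 598 in MB-3, and each MB-3 library was below the DMSO library of its letter while the groups overlapped. Its log2 fold change was -0.18 ± 0.08 (SE) with an adjusted p of 0.41, and 0.0069 with the block. Rplp0 had 744, 805 and 745 CPM in DMSO and 642, 709 and 703 in MB-3, so that the groups did not overlap. Its fold change of -0.16 ± 0.06 had an adjusted p of 0.37, and 0.017 with the block. Rps20 had 807, 904 and 809 CPM against 720, 790 and 779, again without overlap, at -0.14 ± 0.07 with an adjusted p of 0.47, and 0.045 with the block. Rpl26, a large subunit protein at the mouth of the exit tunnel, had 192.3, 224 and 204 CPM against 182, 194 and 173, at -0.17 ± 0.07 with an adjusted p of 0.35, and 0.012 with the block. Rpl18 (-0.18 ± 0.08) and Rps7 (-0.14 ± 0.07) had adjusted p-values of 0.40 and 0.46, and 0.028 and 0.046 with the block. Rpl39l was called higher in this fit: it had 6.27, 7.995 and 5.14 CPM in DMSO and 8.54, 9.97 and 6.90 in MB-3, at 0.39 ± 0.16 with an adjusted p of 0.39, and 0.0060 with the block.

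The groups did not overlap in 3 of the 85 genes, Rplp0, Rps20 and Rpl10l, all lower in MB-3. This is 3.53%, beside 7.37% of all genes with every MB-3 library below every DMSO library and 8.22% with every MB-3 library above, and 0 of the 85 genes were of the latter kind. Rpl10l had 20.4, 20.6 and 20.2 CPM in DMSO and 17.7, 18.3 and 18.6 in MB-3, at -0.16 ± 0.07 with an adjusted p of 0.39, and 0.12 with the block. When CPM were taken by the library total without TMM, every MB-3 library was below every DMSO library in 10 of the 85 genes (11.8%), beside 6.97% of all genes, and above in 0, beside 8.03%.

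The remaining genes at the ends of the range were low or within their errors. Rpl3l had 1.02, 0.738 and 0.441 CPM in DMSO and 0.301, 0.478 and 0.583 in MB-3, which overlapped, with a log2 fold change of -0.70 ± 0.35 and an adjusted p of 0.50. Rpl29 stood at -0.19 ± 0.25 with an adjusted p of 0.82. At the other end were Rpl24 (0.13 ± 0.20, adjusted p of 0.85), Rpl10 (0.11 ± 0.06, 0.57), Rps2 (0.07 ± 0.06, 0.71) and Rpl35a (0.06 ± 0.07, 0.80). The gene's own part of the summed counts was under 10% in the latter 4, and with named pseudogenes added to their genes Rpl10, Rps2 and Rpl35a were below 0.

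Genes with well-known further roles are given as levels from the counts of the genes alone, without their copies. Rps3 had 1660, 1888 and 1760 CPM in DMSO and 1575, 1725 and 1560 in MB-3. Rps6, the substrate of the S6 kinases, had 572, 624 and 574 CPM against 533, 601 and 562. In both genes B was the highest library of each group, and MB-3 B lay within the DMSO range, so the groups overlapped. Rpsa had 42.8, 45.8 and 44.3 CPM in DMSO and 41.1, 47.6 and 40.6 in MB-3. Fau, which encodes a ubiquitin-like protein fused to a small subunit protein, had 10.4, 11.1 and 9.88 CPM against 9.02, 9.88 and 10.9. The groups overlapped in both.
Rps27a, a fusion of ubiquitin with a small subunit protein, had 304, 351 and 305 CPM in DMSO and 298, 319 and 278 in MB-3. Rpl5 and Rpl11, which can bind Mdm2, ranged from 28.9 to 32.4 and from 242 to 278 CPM in DMSO. In MB-3 they ranged from 30.3 to 30.4 and from 233 to 274 CPM. With the copies added, Rpl5 stood at 425 CPM per kb in DMSO and Rpl11 at 445. Rps19, known from inherited anaemia, ranged from 91.6 to 110 CPM in DMSO and from 93.1 to 97.2 in MB-3. Rpl13a ranged from 319 to 371 and from 308 to 357 CPM, Rpl41, the smallest of the proteins, from 572 to 706 and from 587 to 649, and Rps26, which contacts the mRNA at its exit, from 612 to 744 and from 600 to 646. In each of these genes the groups overlapped.

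The libraries of 1 letter stood apart in most of the genes. In 63 of the 85 genes (74.1%) library B was the highest of its group in both DMSO and MB-3, beside 17.1% of all genes. Library B was above its group mean in 83 of 85 genes in DMSO, with a median deviation of 0.11 on the log2 scale, and in 75 of 85 in MB-3, with a median of 0.06, while over all genes the medians were 0.00392 and -0.00439. The 54 genes at 100 CPM or more in DMSO showed this order in 49 cases (90.7%), and the 31 lower genes in 14 (45.2%). It was seen in 26 of 32 small subunit genes, 33 of 46 large subunit genes and 4 of 7 paralogs, and in 306 of 482 tested pseudogene copies (63.5%). Rps2 alone had B as the lowest library of both groups. Without TMM, in CPM by the library total, the number was 46 of 85, beside 9.79% of all genes. The median difference between MB-3 and DMSO, -0.07, was smaller in size than the median difference between B and the mean of A and C, which was 0.16 in DMSO and 0.10 in MB-3.

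**Figure D4:**
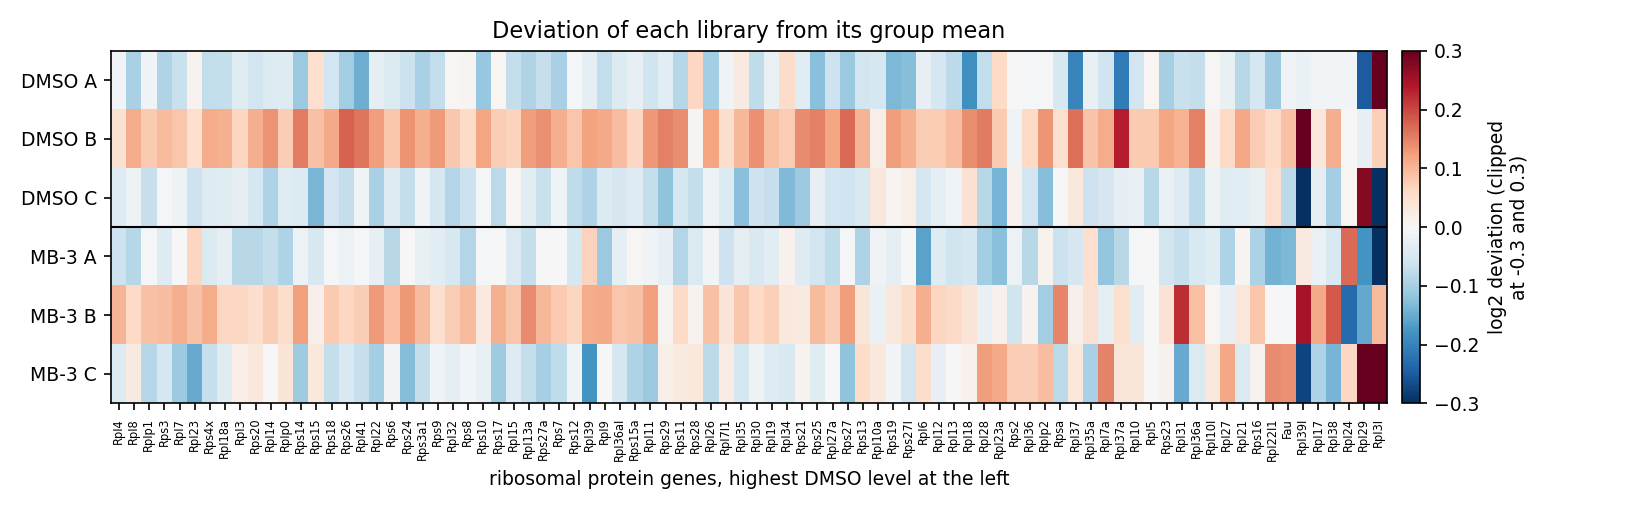
Deviation of each library from its group mean on the log2 (CPM + 0.1) scale for 84 of the 85 genes, ordered from the highest to the lowest DMSO level; the colours are clipped at -0.3 and 0.3, and the line parts DMSO from MB-3. The B row is above its mean in most genes of both groups, and the lowest genes at the right vary most.

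Markers of other cell types ran against this order in part. The 10 markers of ES cells were expressed in every library, with sums of 4910 to 5442 CPM in DMSO and 4947 to 5247 in MB-3, and 0 were called with treatment alone, 1 higher and 1 lower with the block. The 4 genes of simple epithelium summed to 161, 88.5 and 285 CPM in DMSO A, B and C and to 72.9, 50.8 and 124 in MB-3. The 4 genes of mesendoderm, of which 1 was under 1 CPM in every library, summed to 24.7, 15.1 and 46.1 CPM and to 9.87, 7.83 and 13.4. The 8 genes of mesenchyme or fibroblasts, 1 of them under 1 CPM throughout, ranged from 166 to 283 CPM in DMSO and from 108 to 136 in MB-3. In all 3 lists the sum was lowest in B in both groups, and each gene had a fitted change below 0. The order did not hold for every gene: Thy1, 1 of the 8 mesenchymal genes, was highest in B in both groups. Vim was called lower by edgeR with treatment alone, and with the block 3 of the 4 epithelial, 5 of the 8 mesenchymal and 3 of the 4 mesendodermal genes were called lower. The 3 genes of neuroectoderm summed to 67.3, 63.0 and 85.5 CPM in DMSO A, B and C and to 62.7, 59.8 and 64.7 in MB-3. Here too the sum was lowest in B in both groups, as was Nes, and 1 of the 3 genes had a fitted change below 0. Pax6 went the other way and was highest in B in both groups, and Sox1 was highest in B in DMSO. Of the 5 genes of extraembryonic endoderm, 3 were under 1 CPM throughout. The sums of the 5 ranged from 8.27 to 11.5 CPM in DMSO and from 7.62 to 9.21 in MB-3. In MB-3 their lowest library was A, and all 4 tested genes had a fitted change below 0. Neither list had a call with treatment alone, and with the block 1 neuroectodermal gene was called higher, 1 lower and 0 of extraembryonic endoderm. In bulk RNA, fewer cells of a type and less RNA per cell cannot be told apart, and the part of these markers in the order of the libraries was not tested.

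Other genes of translation were read from fixed lists. Of 19 translation factors and other genes with TOP mRNAs, 0 passed the edgeR test, 11 had a fitted change below 0, and the median log2 fold change was -0.01, against -0.07 for the ribosomal protein genes. Library B was the highest of both groups in 11 of the 19. With the block, 1 was called, Rack1, which encodes a protein bound to the small subunit: it had 1773, 1985 and 1921 CPM in DMSO and 1630, 1774 and 1750 in MB-3, at -0.14 ± 0.07 with an adjusted p of 0.48, and 0.036 with the block. Of 40 genes of ribosome biogenesis, 0 passed the test, 9 were below 0, and the median was 0.04. With the block, only Heatr1 was called, at 0.14 ± 0.06 with an adjusted p of 0.41, and 0.048 with the block. The difference between the lists was not tested.

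Starts of the genes were searched for the letters of a TOP tract. RefSeq promoter windows (GRCm38) were at hand for 65 of the 85 genes. A C followed by at least 6 further C or T, beginning within 10 bases of an annotated start, was found in 31 of 65 (47.7%). The share was 14.1% among all 27025 genes that had windows. With at least 4 further C or T it was found in 40 of 65 (61.5%), beside 34.4%. The lengths were chosen after the shares had been seen, and only the strand of the gene was searched. The windows below are shown because they hold the 2 longest tracts (Rpl27a and Rpl35), a gene called with the block (Rpl18) and a pair of genes with H3K9ac peaks described next (Rps12 and Rps26), and Rpl4 as a highly expressed gene without a match within 10 bases of the annotated start, although a run of C and T begins further upstream in its window. Each has 20 bases before the annotated start and 21 from it, with the tract in capitals. They lie at chr7:109519175-109519215 (plus strand), chr2:39005111-39005151 (minus), chr7:45718051-45718091 (plus), chr10:23787189-23787229 (minus), chr10:128626486-128626526 (minus) and chr9:64173367-64173407 (plus):
Rpl27a: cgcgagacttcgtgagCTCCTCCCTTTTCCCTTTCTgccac
Rpl35: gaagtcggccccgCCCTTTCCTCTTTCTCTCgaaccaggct
Rpl18: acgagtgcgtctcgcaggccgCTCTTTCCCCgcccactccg
Rps12: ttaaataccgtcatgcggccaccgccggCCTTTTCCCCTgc
Rps26: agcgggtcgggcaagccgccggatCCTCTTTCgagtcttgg
Rpl4: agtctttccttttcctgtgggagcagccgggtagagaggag

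H3K9ac was compared to ask whether the mark was kept at these genes after Kat2a inhibition. The part of the peak annotation used here names the nearest gene for 1999 of 11724 DMSO peaks, on chromosomes 1 and 10 and part of 11 (mm9), and 18 of these peaks are named for 12 ribosomal protein genes. At least 1 base of 16 of the 18 (88.9%, Wilson 95% interval 67.2 to 96.9, counting error only) was still covered by an MB-3 peak, beside 36.6% of the 1999 peaks. MB-3 peaks covered 75.1% of the bases of the 18 peaks and 30.3% of those of all 1999. The peaks of these genes were also wider, at 1383 bp in the median, where all peaks had 531 bp. Among peaks of at least 1000 bp, 11 of 11 were kept, beside 84.1% of 270. There was 1 list per treatment, made from merged duplicates, so no test was made, and peaks of 1 gene are not independent.

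The widest of these peaks, 2770 bp at chr11:77995327-77998096 near Rpl23a, was covered over 1794 bp by MB-3 peaks. The Rps12 peaks, of 2534 bp at chr10:23504415-23506948 and of 1104 bp at chr10:23507247-23508350, were covered over 2126 and 1098 bp. The Rps27a peak of 2387 bp at chr11:29446650-29449036 was covered over 1908 bp, and the Rpl26 peak of 1889 bp at chr11:68715117-68717005 over 1305 bp. The Rps26 peak of 1721 bp was covered over 1432 bp and the Rpl41 peak of 984 bp over 520 bp. The 2 peaks without an MB-3 peak were narrow, 282 bp near Rpl31 and 377 bp near Rpl19, and both genes had wider peaks that were kept. The same source names 1999 of the 4673 MB-3 peaks, and 52 of these were named for 33 ribosomal protein genes. Their median width was 806 bp, where that of all 1999 was 416 bp. The named part is a larger share of the MB-3 list than of the DMSO list (1999 of 11724). The numbers of genes named in the 2 lists therefore cannot be compared. The read depth behind the lists is unknown here.

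**Figure D5:**
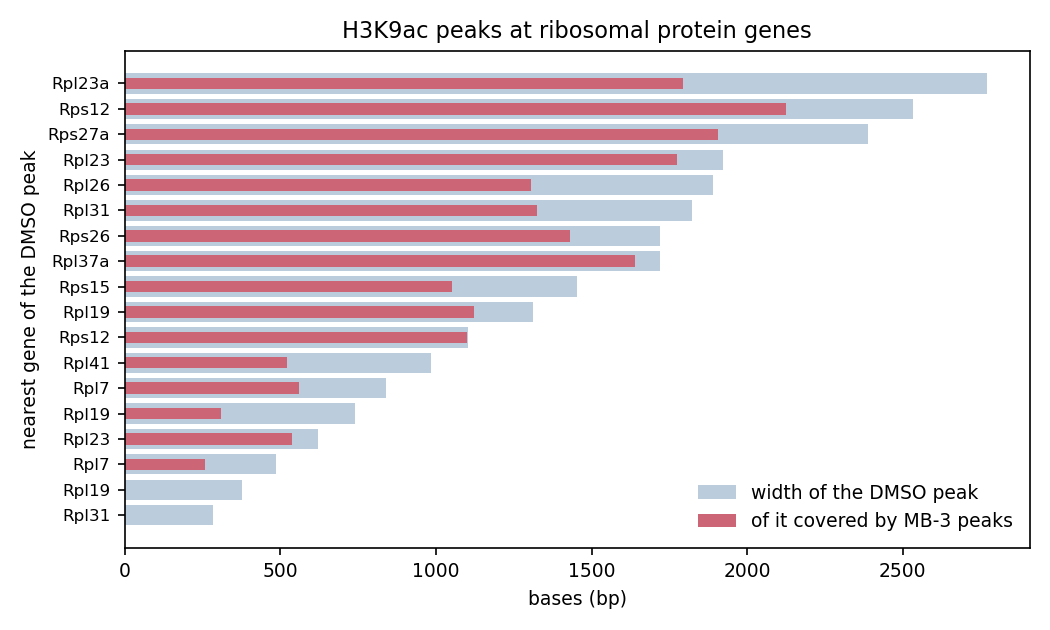
Width in bp of the 18 DMSO H3K9ac peaks whose nearest gene is a ribosomal protein gene (pale bars), and the bases of each that MB-3 peaks covered (red bars), from the narrowest at the bottom. The 2 narrowest peaks, of 282 and 377 bp, had no MB-3 peak.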

How the data were processed

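Poly(A) RNA of 6 TNGA libraries (3 DMSO, 3 MB-3) was sequenced as single reads. The authors used Bowtie to align trimmed reads to mm10 and GenomicAlignments to count them over exons, and the deposited table holds these raw counts by Ensembl identifier. Versions, the annotation release, the use of strand and the handling of reads with several matches are not given in the sources used here. The libraries held 42270312 to 51137896 counts, and over the ribosomal protein genes the standard error of log2 fold changes had a median of 0.07. For H3K9ac the authors used BWA to align both replicates to mm9, the replicates were merged, MACS2 called peaks relative to input, and the deposited lists give positions in bp without a score.

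Symbols, biotypes and coordinates came from GENCODE M21 (GRCm38), which matched 30540 of 30677 identifiers. The table had 0 columns that were not used and 0 rows that name no gene. Windows of 50 bases from 1 transcript per gene were searched for exact copies on both strands of the genome. Of the 85 genes, 23 overlap another gene on the opposite strand.

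MB-3 was compared with DMSO in edgeR 4.0.16 (R 4.3.3) with filterByExpr, TMM and the quasi-likelihood test, treatment as the only term, and Benjamini-Hochberg adjustment over all genes tested. Levels are TMM-scaled CPM, and log2 levels used CPM + 0.1. Alternatives were RLE, no filter, DESeq2 1.42.0, limma-voom (limma 3.58.1), the letter as a block, TMM factors without the ribosomal protein genes, named pseudogenes added to their genes, and each library left out. In data simulated with 2-fold and 1.5-fold changes, the procedure recovered 81.8% and 51.5% of them, and 19 unchanged genes were called. Smaller changes, such as those of most ribosomal protein genes, were not simulated. The deviations from the group means of same-lettered libraries correlated over all tested genes at 0.12 for A, 0.29 for B and 0.23 for C. On these values the letters, which come from the titles, were taken to pair the libraries. No other pair was above 0, but the deviations of a group sum to 0 for each gene, so those pairs give no separate evidence. Replicates of a group were not duplicates of each other (chi-square per gene 8.39 to 17.1). The other steps ran in Python 3.11.15 (scipy 1.17.1, numpy 2.4.6).

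Named genes were the 5 highest and 5 lowest by level per kb, the 5 highest and 5 lowest by fold change, those called in either fit, paralogs with their partners, and a list of genes with known further roles. Rps4l, a pseudogene, was left out, and 1 of the 85 genes is not reported by name here. Gene lists covered translation factors and other TOP genes, ribosome biogenesis, RNA polymerase I, control of TOP translation, mitochondrial ribosomal proteins and cell type markers. The genes and lists were chosen with earlier results of these data known. The authors' own fold changes were not used.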

Additional observations from a re-analysis of the deposited data

How the results depend on the processing

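The number of ribosomal protein genes called stayed at 0 under RLE, no filter, DESeq2, limma-voom, TMM factors without these genes, named pseudogenes added and with each library left out, and became 7 with the replicate block. Over all genes, 41 were called, against 194 without the filter, 183 by DESeq2, 18 by limma-voom and 1425 with the replicate block. Leaving out a library gave 0 to 520: 0 without MB-3 A or MB-3 B, 3 without DMSO A, 5 without DMSO C, 62 without MB-3 C and 520 without DMSO B. The ribosomal protein genes with a fitted change below 0 numbered 52 to 77 and their median log2 fold change was -0.11 to -0.02 over these alternatives, all in 1 direction. The cause of the change without DMSO B was not tested. With named pseudogenes added, Rpl10 (-0.0896), Rpl35a (-0.0866) and Rps2 (-0.0807) changed sign. Of 182 pairs of a named gene and an alternative, 172 kept their direction and side of the threshold and 7 became calls, all with the block. No ribosomal protein gene was called with treatment alone, so no call could be lost. Without TMM the groups did not overlap in 10 genes (11.8%, all lower in MB-3, beside 6.97% of all genes) rather than 3. Of the H3K9ac peaks of at least 500 bp, all 15 named for these genes were kept (100.0%), beside 54.9% of 1088. The 15 were wider, with a median of 1720 bp, where the 1088 had 747.5 bp. Counts near 1 CPM, as for Rpl24, Rpl29 and Rpl3l, limit what their fold changes show.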

Other observations

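The 78 mitochondrial ribosomal protein genes, which serve the separate ribosome of the mitochondrion, were all in the count table and 77 were tested. Of these, 0 passed the edgeR test, 42 had a fitted change below 0 and the median log2 fold change was -0.01. Library B was the highest of both groups in 46 of the 77 (59.7%), beside 17.1% of all genes, and their sums were 3433, 3756 and 3479 CPM in DMSO A, B and C and 3467, 3684 and 3545 in MB-3. With the block, Mrps17 was called higher (0.16 ± 0.06) and Mrps18c lower (-0.27 ± 0.10).

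Of 14 genes of RNA polymerase I, which transcribes ribosomal RNA, 0 passed the edgeR test, 5 were below 0 and the median was 0.06. Library B was the highest of both groups in 1 of the 14. With the block, Polr1b was called higher: it had 104, 108 and 101 CPM in DMSO and 121, 116 and 122 in MB-3, without overlap, at 0.20 ± 0.05 with an adjusted p of 0.21, and 0.0068 with the block. Of 9 genes that control the translation of TOP mRNAs, 0 passed the test and 1 was below 0, with a median of 0.09. That gene was Eif4ebp1, which encodes an inhibitor of cap-dependent translation, with 242, 268 and 261 CPM in DMSO and 216, 235 and 248 in MB-3, at -0.14 ± 0.06 with an adjusted p of 0.44, and 0.033 with the block.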
